A study of Peromyscus polionotus with 11 samples.

Results

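Elavl1, Elavl2, Elavl3, Elavl4 and Nova1 encode RNA-binding proteins, and their transcripts were followed here in the forebrain of the oldfield mouse, Peromyscus polionotus. All 5 genes were on the array, with 15 probe sets that carry 1 of these symbols alone, out of 12393 genes and 22626 probe sets tested. Elavl1 has 2 of these probe sets, Elavl2 has 5, Elavl3 and Elavl4 have 3 each, and Nova1 has 2. The group was chosen by measured values of these arrays, since Elavl4 and Nova1 had already been seen to read lower in the bed nucleus than in the medial preoptic area. The difference between the nuclei is therefore given for all 5 as a description, with no test. Their response to day length played no part in the choice and was tested.

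RNA came from micropunches of the bed nucleus of the stria terminalis (BST) and of the medial preoptic area (MPOA), 2 connected forebrain nuclei that take part in social and reproductive behaviour. The groups were short-day BST (n = 2, samples 4 and 5), long-day BST (n = 3, samples 1 to 3), short-day MPOA (n = 3, samples 4 to 6) and long-day MPOA (n = 3, samples 1 to 3). The labels name no other treatment and give no sex, age or strain for the animals, and nothing in them ties a sample to a named animal or says that a number shared by both nuclei marks 1 animal. What the p-values weigh is thus the scatter among the samples of a group, which may be technical. A micropunch holds all cell types of the tissue it takes, so fewer cells of a type and less RNA per cell cannot be told apart.

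The Elavl proteins carry RNA recognition motifs and bind U-rich and AU-rich stretches of messenger RNAs, whose stability, translation and splicing they affect. Elavl1, also called HuR, is made in nearly all cells, whereas Elavl2 (HuB), Elavl3 (HuC) and Elavl4 (HuD) are found chiefly in neurons, where they take part in neuronal differentiation, neurite growth and plasticity. Nova1 is a KH-domain protein of neurons that steers alternative splicing of transcripts for synaptic proteins, and in the house mouse it is known for its expression in the hypothalamus, brainstem and spinal cord.

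Values are the deposited probe set intensities, on a linear scale that had been normalized between arrays, with a median of 19 on every array. The probe sets were designed for the house mouse, so mismatches with oldfield mouse sequence may lower some of them by an unknown amount, and a gene's level was not compared with another gene's. Brightest and dimmest name only the signal of a probe set. Of the 15 probe sets, 14 had a mean log2 intensity above the median of all probe sets. The exception was the Elavl2 probe set 1433052_at, which read 11 to 22. The number of arrays limits the precision. On the first principal component of all probe sets, which held 23.2% of the variance, the short-day MPOA array 6 lay at -31.2, apart from the range of -6.63 to 25.4 of the other arrays. Without it BST minus MPOA, averaged over day lengths, was -0.96 for Elavl4 1452894_at, against -0.94 with it, and -0.81 for Nova1 1426938_at, against -0.80 with it. At the other end, at 25.4, lay the long-day BST array 1. Without that array the same values were -0.75 for Elavl4 1452894_at and -0.76 for Nova1 1426938_at. Over all arrays left out in turn, Elavl4 1450258_a_at ran from -1.01 to -0.59.

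Elavl4, the HuD protein of differentiating and mature neurons, read lower in the BST punches than in the MPOA punches, and it varied widely among the BST arrays. Its brightest probe set (1452894_at) read 561 and 390 in short-day BST and 404, 927 and 849 in long-day BST, against 1152, 1176 and 1091 in short-day MPOA and 879, 1165 and 1073 in long-day MPOA. Both short-day BST arrays and the long-day BST array 1 lay well below every MPOA array, while the long-day BST array 2 stood above the long-day MPOA array 1. The group means were 475.5 ± 121 (SD, n = 2) in short-day BST, 727 ± 282 (n = 3) in long-day BST, 1140 ± 43.8 (n = 3) in short-day MPOA and 1039 ± 146 (n = 3) in long-day MPOA. From low to high the order was short-day BST, long-day BST, long-day MPOA and short-day MPOA, and each neighbouring pair in that order overlaps in its arrays.

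The other Elavl4 probe sets gave the same picture. The probe set 1428741_at read 179 and 129 in short-day BST and 129, 295 and 256 in long-day BST, against 313, 324 and 333 in short-day MPOA and 256, 302 and 293 in long-day MPOA. The probe set 1450258_a_at read 221 and 124 in short-day BST and 163, 385 and 339 in long-day BST, against 507, 389 and 336 in short-day MPOA and 293, 326 and 420 in long-day MPOA. On both, the long-day BST arrays 2 and 3 read within the span of the MPOA arrays, and the other 3 BST arrays read below it.

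Elavl2, the HuB protein, showed the same arrangement of arrays. Its brightest probe set (1421883_at) read 1154 and 926 in short-day BST and 818, 1434 and 1347 in long-day BST, against 1968, 1871 and 1829 in short-day MPOA and 1599, 1760 and 1549 in long-day MPOA. Here the nuclei did not overlap, and the lowest of all arrays was the long-day BST array 1. The probe set 1454454_at ranged from 204 to 439 in BST and from 375 to 631 in MPOA. The probe set 1421882_a_at ranged from 187 to 367 in BST and from 353 to 477 in MPOA, and the dimmer 1421881_a_at from 21 to 41 in BST and from 38 to 60 in MPOA. On these 3 probe sets the nuclei overlapped only through the long-day BST array 2. The dimmest, 1433052_at, read 11 to 18 in BST and 14 to 22 in MPOA, under or near the array median, where a step of 1 unit is a large relative change.

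Nova1, the splicing regulator, was lower in BST without the same break between arrays 1 and 2. Its brighter probe set (1426938_at) read 254 and 195 in short-day BST and 284, 351 and 334 in long-day BST, against 605, 428 and 485 in short-day MPOA and 387, 454 and 469 in long-day MPOA. Every BST array lay below every MPOA array, and within BST both short-day arrays lay below the long-day arrays. The dimmer probe set (1452245_at) read 29 and 46 in short-day BST and 45, 39 and 61 in long-day BST, against 83, 73 and 61 in short-day MPOA and 59, 67 and 61 in long-day MPOA. On this one the long-day BST array 3 reached the MPOA level.

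**Figure D1:**
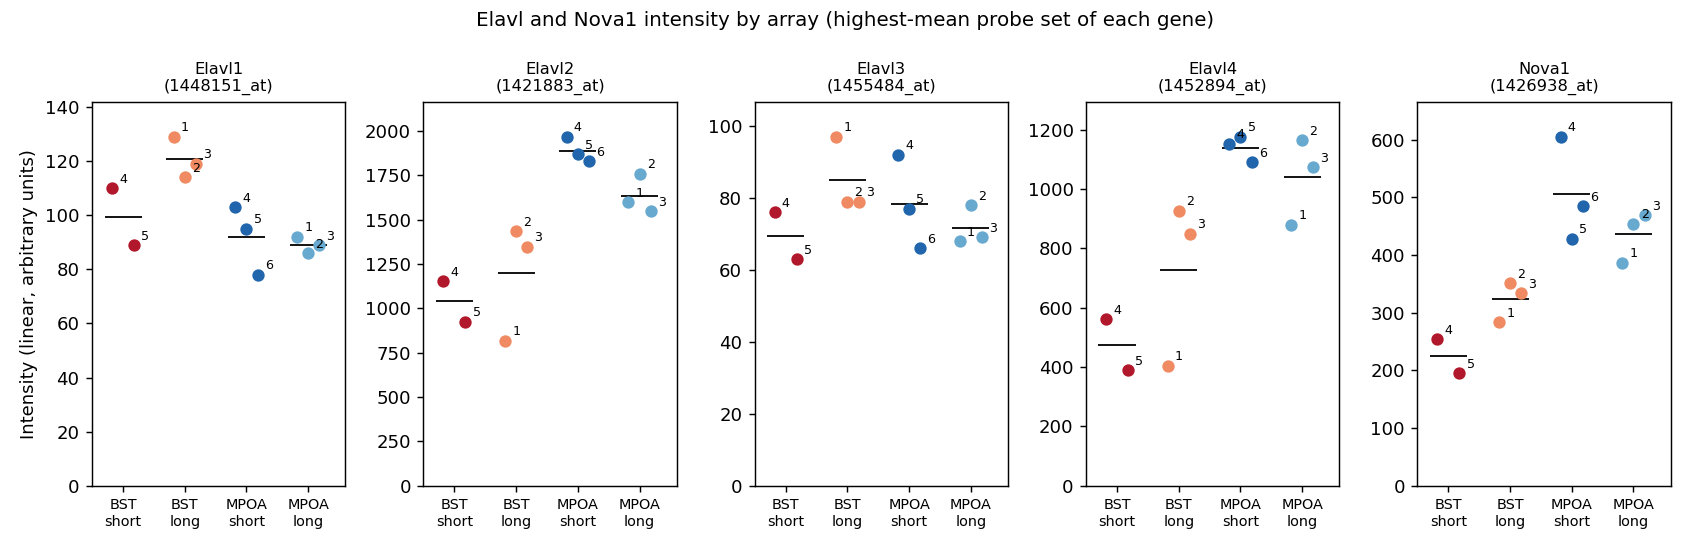
Intensity of the brightest probe set of each gene on the 11 arrays (linear axis from 0, arbitrary units), with short- and long-day BST left of short- and long-day MPOA. Points are arrays marked with their sample number and bars are group means. Elavl2, Elavl4 and Nova1 sit lower in BST, with the long-day BST array 1 at 404 for Elavl4 against 927 and 849 on arrays 2 and 3, while Elavl1 and Elavl3 show no such step.

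Elavl1 and Elavl3 had another order of arrays. Elavl1, the ubiquitous HuR protein, read 110 and 89 in short-day BST and 129, 114 and 119 in long-day BST on its brighter probe set (1448151_at), against 103, 95 and 78 in short-day MPOA and 92, 86 and 89 in long-day MPOA. The long-day BST arrays were thus the highest of all 11, and short-day BST overlapped MPOA. Its dimmer probe set (1431037_a_at) read 20 to 31 in BST and 20 to 27 in MPOA. Elavl3, the HuC protein of neurons, read 76 and 63 in short-day BST and 97, 79 and 79 in long-day BST on the probe set 1455484_at, against 92, 77 and 66 in short-day MPOA and 68, 78 and 69 in long-day MPOA. Its other probe sets ranged from 70 to 81 in BST and 60 to 82 in MPOA (1452524_a_at), and from 32 to 40 in BST and 34 to 46 in MPOA (1435871_at). For Elavl3 the nuclei overlapped on every probe set.

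As log2 differences, BST minus MPOA averaged over both day lengths, Elavl4 stood at -0.94 ± 0.17, -0.80 ± 0.19 and -0.75 ± 0.16 on its 3 probe sets (SE of the linear model). Elavl2 stood at -0.68 ± 0.13, -0.81 ± 0.17, -0.73 ± 0.15 and -0.64 ± 0.16 on its 4 brighter probe sets, and at -0.24 ± 0.13 on the dim one. Nova1 stood at -0.80 ± 0.11 and -0.68 ± 0.13. For the brightest Elavl4 probe set this is a level 1.92-fold lower in BST, and for the brighter Nova1 probe set 1.74-fold lower. Elavl1 stood at 0.28 ± 0.10 and 0.11 ± 0.11, and Elavl3 at 0.04 ± 0.11, 0.05 ± 0.10 and -0.10 ± 0.11. Of all probe sets, 49.9% were below 0 and 50.1% above 0. All BST arrays lay below all MPOA arrays on 2 of the 15 probe sets, 1 of Elavl2 and 1 of Nova1, which 0.769% of all probe sets do. As this contrast chose the genes, these values describe them and support nothing further.

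For Elavl2, Elavl4 and Nova1 the estimated gap between the nuclei was wider in short than in long days, a difference of gaps that did not pass the test for any member. BST minus MPOA was -1.28 ± 0.25 in short days and -0.60 ± 0.22 in long days for the brightest Elavl4 probe set, and -1.29 ± 0.29 and -0.31 ± 0.26 for 1450258_a_at. For the brighter Nova1 probe set it was -1.17 ± 0.17 in short days and -0.44 ± 0.15 in long days, and for the brightest Elavl2 probe set -0.87 ± 0.19 and -0.49 ± 0.17. In the arrays themselves, both short-day BST arrays lay below all 6 MPOA arrays on 9 of the 15 probe sets, which 5.81% of all probe sets do. These were all 3 of Elavl4, both of Nova1 and 4 of Elavl2, so that they are repeated readings of the same transcripts. As the group was chosen by lower BST values on these same arrays, this count is a description and supports nothing further. Of the long-day BST arrays, all lay below the long-day MPOA arrays on 2 of 15 (5.5% of all probe sets) and all above them on 2 of 15 (6.69%). The 2 above were a probe set each of Elavl1 and Elavl3.

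**Figure D2:**
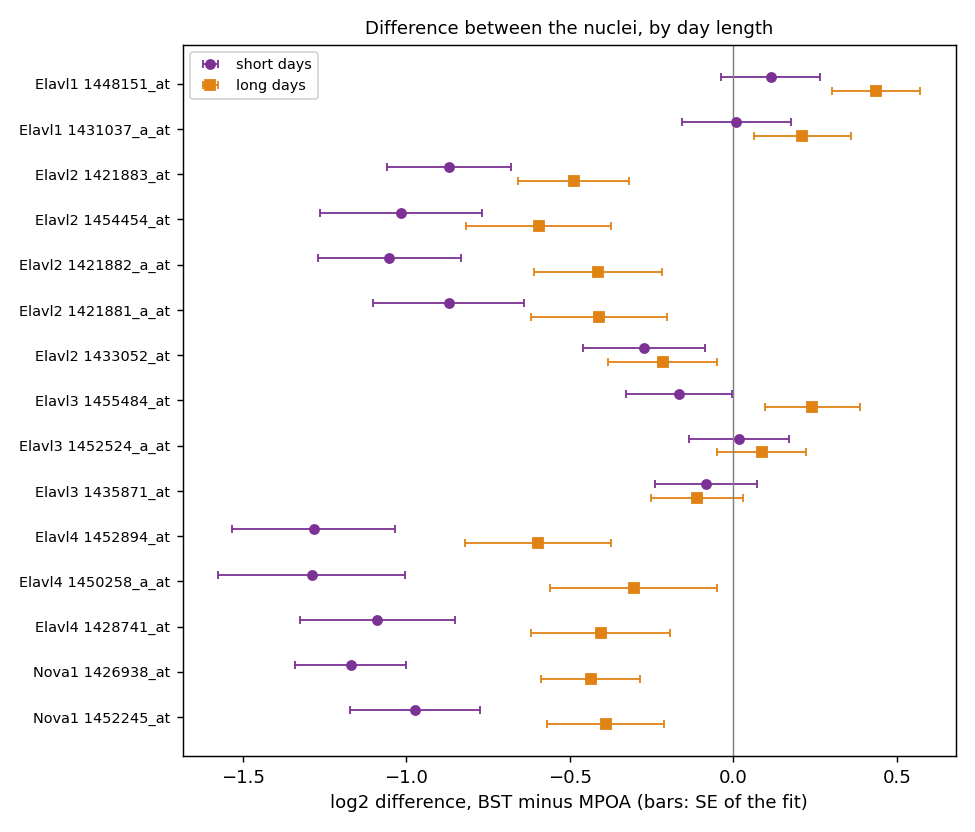
Log2 difference, BST minus MPOA, of the 15 probe sets in short days (circles) and in long days (squares), with bars for the SE of the linear model. Elavl2, Elavl4 and Nova1 lie left of 0 in both day lengths and further left in short days (-1.28 and -0.60 for Elavl4 1452894_at), and Elavl1 and Elavl3 lie near or right of 0.

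Whether day length changes these transcripts was tested with limma over all 22626 probe sets, and no member passed in any of the comparisons. In BST, 13 of the 15 probe sets read lower in short than in long days, with a median log2 difference of -0.29 against -0.01 over all probe sets. Of all probe sets, 52.8% were below 0 and 47.2% above 0. The 15 are repeated readings of 5 genes on the same arrays, and Elavl4 1428741_at correlated at 0.99 with the brightest Elavl4 probe set. Counts out of 15, here and in the comparisons below, are thus not counts of independent results. Among the 13 was Elavl3 1435871_at, at -0.0019 ± 0.16. The largest was that of Elavl4 1450258_a_at, at -0.74 ± 0.29 (adjusted p = 0.282), followed by the brightest Elavl4 probe set at -0.55 ± 0.25 (adjusted p = 0.366) and by Nova1 1426938_at at -0.53 ± 0.17. The Nova1 value had the smallest p (0.0052, adjusted p = 0.193). Past the threshold in BST were 0 of 15 member probe sets and 0.0442% of all probe sets. At an unadjusted p under 0.05, 3 of the 15 were lower, against 6.87% of all probe sets lower and 12.7% in either direction. The 3 were Elavl4 1450258_a_at, the brightest Elavl4 probe set and Nova1 1426938_at.

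Cell type markers were compared in the same way in BST, and none passed. Of 6 markers of ependyma and choroid plexus, 5 were below 0, with a median of -0.33. At an unadjusted p under 0.05, 3 were lower, against 6.87% of all probe sets lower and 12.7% in either direction. The 3 were the ciliary Rsph1 (-0.58 ± 0.15, adjusted p = 0.114), the transcription factor Otx2 (-0.55 ± 0.18, adjusted p = 0.202) and the folate receptor Folr1 (-0.46 ± 0.17, adjusted p = 0.256). All 3 were dim, with 18 to 34, 12 to 24 and 18 to 35 over all arrays, against an array median of 19. Their list summed to 144 and 145 on short-day BST arrays and to 164 to 195 on long-day BST arrays. Of 15 general neuronal markers 10 were below 0 and 5 above 0, with a median of -0.16. The smallest p was that of the dendritic microtubule protein Map2 (-0.60 ± 0.16, adjusted p = 0.116). It read 57 and 48 in short-day BST and 90, 83 and 67 in long-day BST. The next smallest lay on the other side, that of the neuronal enolase Eno2 (0.46 ± 0.19, adjusted p = 0.321). It read 23 and 15 in short-day BST and 14, 16 and 11 in long-day BST. This is near or under the array median of 19, where a step of 1 unit is a large relative change. On the same list Syn1 (14 to 23 over all arrays), Uchl1 (9 to 15) and Thy1 (10 to 17) were as dim. All of these count among the 15, and their signs carry little weight. Striatal markers were above 0 in 3 of 6 with a median of 0.00. The part of these cells in the members' values was not tested.

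The same BST comparison rested on few arrays. Short- and long-day BST arrays did not overlap, with short days lower, on 3 of 15 probe sets, 1 each of Elavl1, Elavl3 and Nova1. This was so for 13.5% of all probe sets, a share close to that of the members. For the 3 Elavl4 probe sets and the 3 brightest of Elavl2, the long-day array 1 read at or below at least 1 of the short-day arrays, while the long-day arrays 2 and 3 read above both. Without that array the short-day difference of the brightest Elavl4 probe set was -0.92 ± 0.18 (adjusted p = 0.0864), and that of Elavl4 1450258_a_at was -1.13 ± 0.24 (adjusted p = 0.129). Without the short-day array 5 the brightest Elavl4 probe set was at -0.28 ± 0.31 (adjusted p = 0.844), a fit in which the lone short-day array is taken to vary like the other groups. For Nova1 1426938_at the values over the 11 arrays left out ran from -0.72 to -0.34, with adjusted p from 0.153 to 0.670.

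In MPOA 13 of 15 probe sets read higher in short than in long days, with a median of 0.19 against 0.00 over all probe sets. Of all probe sets, 49.9% were above 0 and 49.8% below 0. The brightest Elavl4 probe set was at 0.14 ± 0.22, the brightest Elavl2 probe set at 0.21 ± 0.17 (-0.17 ± 0.19 in BST, adjusted p = 0.753) and Nova1 1426938_at at 0.20 ± 0.15, all with an adjusted p of 1 in MPOA. None of the 15 member probe sets passed, as was so for 0% of all probe sets, and 0 had an unadjusted p under 0.05, against 3.5% of all probe sets. Short-day arrays lay above all long-day arrays on 2 of 15 probe sets, Elavl2 1421883_at and Elavl4 1428741_at, which 2.64% of all probe sets do. Striatal neuron markers lay on the other side here, with 6 of 6 below 0, a median of -0.37 and 3 at an unadjusted p under 0.05, namely Rgs9 (-0.67 ± 0.23), Rasd2 (-0.49 ± 0.22) and Foxp1 (-0.42 ± 0.15), all with an adjusted p of 1. The summed intensity of the striatal list, most of it Foxp1, was 1558 to 2089 in short-day MPOA and 1989 to 2830 in long-day MPOA. Their part in the members' values was not tested.

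The difference between these effects, BST minus MPOA, was below 0 on 14 of 15 probe sets, with a median of -0.42 against -0.02 over all probe sets. Of all probe sets, 52.7% were below 0 and 47.3% above 0. Nova1 1426938_at had the smallest p, with -0.73 ± 0.23 (adjusted p = 0.450). Elavl4 1450258_a_at was at -0.98 ± 0.38 (adjusted p = 0.531) and the brightest Elavl4 probe set at -0.69 ± 0.33 (adjusted p = 0.609). None of the 15 member probe sets passed, nor did any other probe set (0%). At an unadjusted p under 0.05 there were 5 of the 15 probe sets, all lower, against 4.44% of all probe sets lower and 8.34% in either direction. These were Elavl2 1421882_a_at, Elavl4 1450258_a_at and 1428741_at, and both probe sets of Nova1, with none of Elavl1 or Elavl3. This term sets the same arrays against each other as the BST and MPOA comparisons, so its direction is not separate evidence. Averaged over both nuclei, 12 of 15 were below 0 and 3 above 0 (52.3% and 47.7% of all probe sets), none of the members and 0.0133% of all probe sets passed, and the smallest adjusted p was 0.624. No member had an unadjusted p under 0.05 there, against 9.02% of all probe sets.

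**Figure D3:**
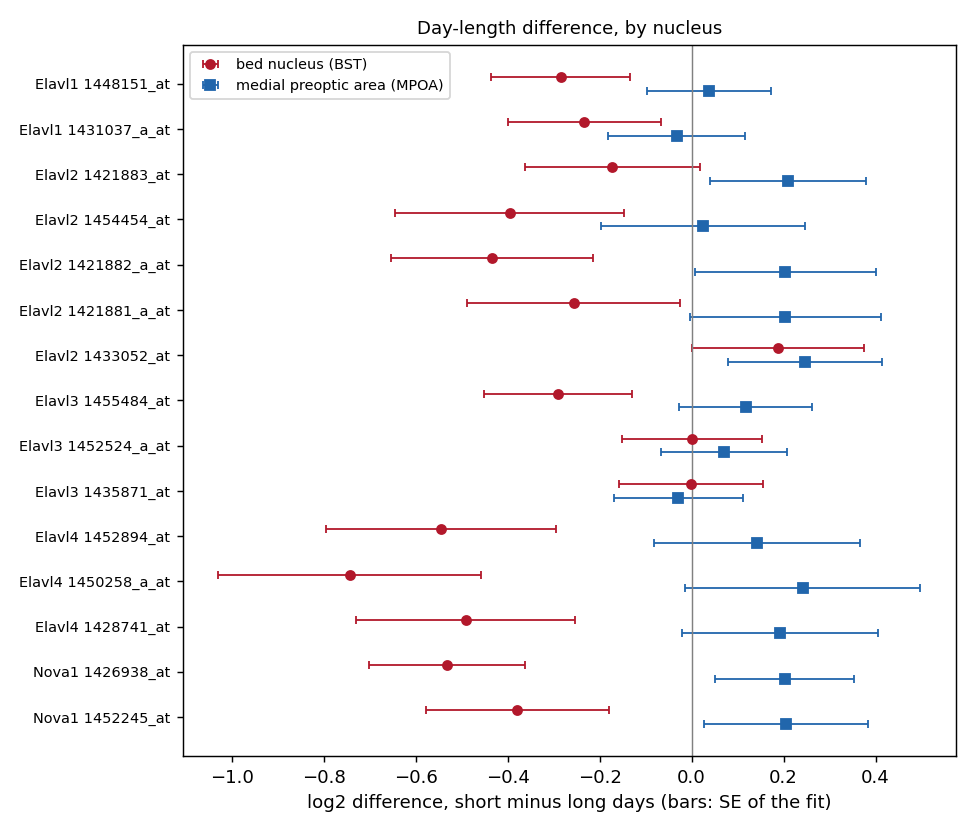
Log2 difference, short minus long days, of the 15 probe sets in BST (circles) and in MPOA (squares), with bars for the SE of the linear model. In BST 13 of 15 lie below 0, down to -0.74 for Elavl4 1450258_a_at, and in MPOA 13 of 15 lie above 0, up to 0.25, but none passed the test.

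The brightest Elavl4 and Elavl2 probe sets had a wide spread within BST and a mid-range or small one within MPOA. For the brightest Elavl4 probe set the highest BST array read 2.38 times the lowest, and the highest MPOA array 1.34 times the lowest. As a log2 range this was 1.25 in BST, at the 99.2nd percentile of the 11313 probe sets with a mean above the median, and 0.42 in MPOA, at the 48.5th percentile. The median range over these probe sets was 0.44 in BST and 0.43 in MPOA. For Elavl4 1450258_a_at the range was 1.64 in BST (99.8th percentile) and 0.79 in MPOA (93.2nd), and for the brightest Elavl2 probe set it was 0.81 in BST (93.0th) and 0.35 in MPOA (31.9th). Nova1 1426938_at had ranges of 0.85 in BST (94.4th) and 0.64 in MPOA (83.8th). Elavl3 1452524_a_at, by comparison, had 0.21 in BST (8.04th) and 0.45 in MPOA (54.3rd). The percentiles are not matched for brightness.

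Cell type markers were measured beside these genes to see what else differed between the punches. Of 6 striatal neuron markers on the array, 6 were above 0 in BST minus MPOA and 5 passed, namely Rasd2, a striatal GTPase (1.09 ± 0.16), Foxp1, a transcription factor (0.80 ± 0.12), Rgs9, a regulator of G-protein signalling (0.71 ± 0.17), Pde10a, a phosphodiesterase (0.60 ± 0.14), and Ppp1r1b, which encodes DARPP-32 (0.58 ± 0.12). At the gene level, with 1 probe set per gene, 0.541% of all genes passed as higher and 0.718% as lower. The marker lists were chosen with earlier results of these data known, so their counts are descriptions. The intensity summed over the striatal list was 2918 to 3713 on BST arrays and 1558 to 2830 on MPOA arrays. Among the BST arrays its mean log2 value was 6.49 and 6.49 on the short-day arrays 4 and 5, and 6.80, 6.30 and 6.18 on the long-day arrays 1, 2 and 3. By this mean the 3 highest BST arrays were those with the lowest Elavl4 1452894_at and Elavl2 1421883_at. By the sum they were not, since it was 3531 and 3713 on the short-day arrays 4 and 5 and 3502, 3524 and 2918 on the long-day arrays 1, 2 and 3. Most of this sum, on every array of both nuclei, was Foxp1 alone. It read 3262 and 3422 on these short-day arrays and 3097, 3293 and 2697 on these long-day arrays. The sum thus follows 1 bright marker, whereas the mean log2 weighs all 6 alike. The long-day MPOA array 1, the lowest MPOA array for Elavl4 1452894_at, had the highest striatal value of its nucleus by the mean (6.20) and by the sum (2830). This was not so for Elavl2. The lowest MPOA array for Elavl2 1421883_at was the long-day array 3 (1549), with a striatal mean of 5.89. For Elavl2 1454454_at it was the short-day array 6 (375), which had the lowest striatal mean of its nucleus (5.51). Drd2, the dopamine D2 receptor, was at 0.04 ± 0.10 and did not pass. The part of these cells in the Elavl values was not tested.

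Markers of hypothalamic and preoptic neurons ran the other way, with 13 of 15 below 0 and 5 passing as lower in BST. These were the neuropeptide Gal (-0.65 ± 0.10, adjusted p = 0.00205, limma) and the LIM factors Lhx8 (-0.75 ± 0.14, adjusted p = 0.0105, limma) and Lhx1 (-0.72 ± 0.13, adjusted p = 0.00812, limma). The others were Ndn (-0.575 ± 0.11, adjusted p = 0.0118, limma) and Nnat (-0.50 ± 0.11, adjusted p = 0.0339, limma). The intensity summed over this list was 2367 to 3070 in BST and 3419 to 4528 in MPOA. Most of it was Ndn alone, which read 1695 to 2255 in BST and 2542 to 3604 in MPOA. Of 15 general neuronal markers, 11 were below 0 with a median of -0.19, none passed, and their sum was 2200 to 2606 in BST and 2455 to 2771 in MPOA. The smallest p were those of the neurofilament Nefl (-0.41 ± 0.11, adjusted p = 0.104, limma), Map2 (-0.28 ± 0.10, adjusted p = 0.246) and the synaptic Syn1 (-0.26 ± 0.10, adjusted p = 0.277). Syn1, like the listed Eno2, Uchl1 and Thy1, read near or under the array median of 19. Among the 4 above 0 were the synaptic Snap25 at 0.04 ± 0.10 and the nuclear neuronal marker Rbfox3 at 0.11 ± 0.11. Oligodendrocyte markers were above 0 in 7 of 7, with sums of 229 to 453 in BST and 178 to 277 in MPOA, and none passed. Astrocyte, microglial, vascular and ependymal lists had 5 of 8, 4 of 8, 5 of 7 and 5 of 6 above 0, and none of their members passed. No marker was listed at 0, since the lowest value in the table is 5.

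**Figure D4:**
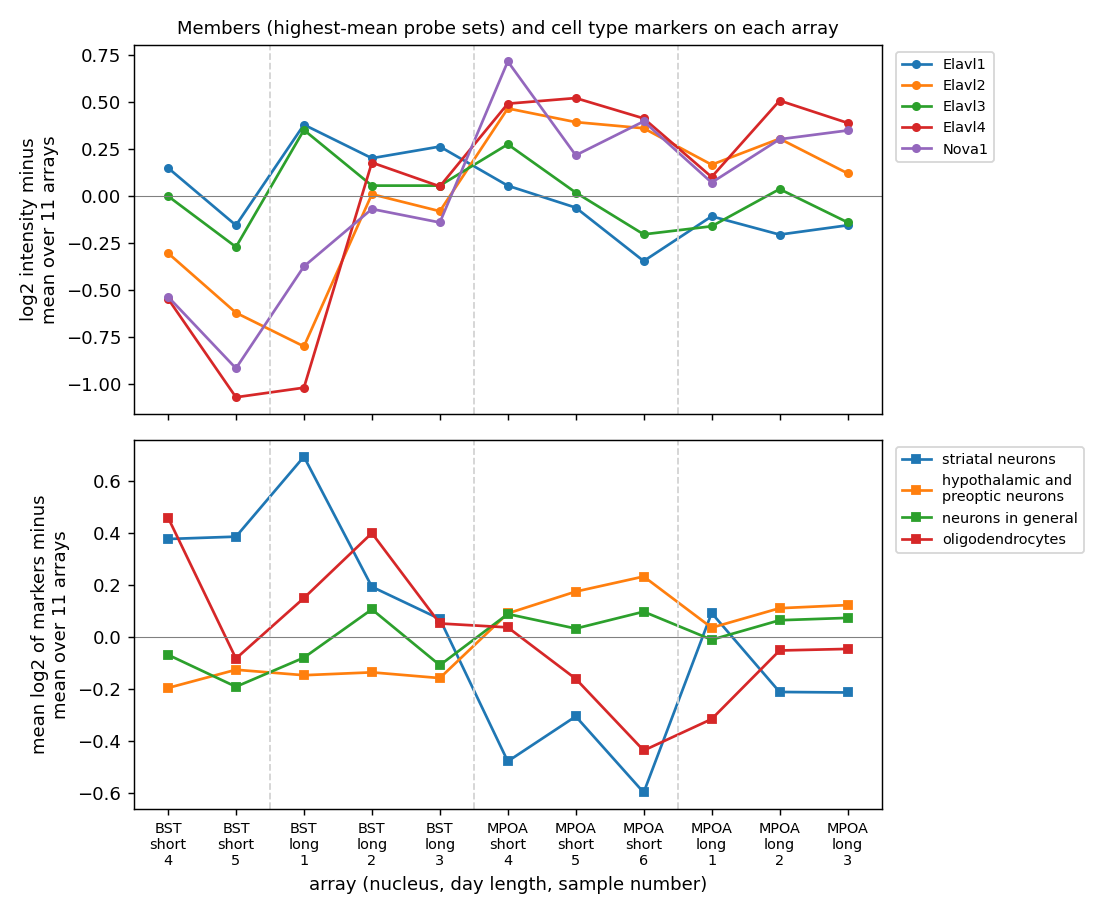
Log2 intensity of the brightest probe set of each gene (upper panel) and mean log2 intensity of 4 marker lists (lower panel), each minus its mean over the 11 arrays, with lines joining arrays only to guide the eye. Elavl2 and Elavl4 are lowest on the short-day BST arrays 4 and 5 and the long-day BST array 1. There the mean log2 of the striatal markers is highest (6.49, 6.49 and 6.80 before centring). Their summed intensity, most of it Foxp1, does not pick out the same arrays.

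Other RNA-binding proteins of neurons lay on both sides of 0. Of 36 such genes on the array, 16 were above 0 and 20 below 0 between the nuclei, with a median of -0.03 against 0.00 over all genes. The one to pass was Rbfox1, a splicing regulator that binds GCAUG elements, and it was higher in BST (0.81 ± 0.14, adjusted p = 0.00353, limma). It read 546 and 587 in short-day BST and 934, 550 and 531 in long-day BST, against 281, 386 and 267 in short-day MPOA and 413, 381 and 378 in long-day MPOA. Its highest array was the long-day BST array 1, where the brightest Elavl2 probe set was lowest. Ptbp2, the neuronal polypyrimidine tract-binding protein, was at -0.11, Celf4 at -0.08 and Celf2 at -0.04, and Fxr2, a relative of the fragile X protein, was at -0.41 ± 0.13 (adjusted p = 0.163). Between short and long days 0 of the 36 passed in either nucleus. The smallest p in BST was that of Syncrip, an RNA-binding protein of neuronal transport granules, at -0.63 ± 0.16 (adjusted p = 0.113, limma), with 293 and 257 in short days and 452, 437 and 391 in long days. Next came Mbnl1, a splicing regulator of the muscleblind family, at -0.55 ± 0.16 (adjusted p = 0.161) and Cpeb1, which binds cytoplasmic polyadenylation elements, at 0.41 ± 0.16 (adjusted p = 0.285). In MPOA the smallest p were those of Rbfox1 (-0.35 ± 0.18), Stau1 (-0.29 ± 0.16) and Tial1 (-0.29 ± 0.16), all with an adjusted p of 1.

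Among 18 measured transcripts reported to be bound by Elavl proteins, 2 passed as lower in BST and none as higher, against 0.718% and 0.541% of all genes. This list, like the others, was chosen with earlier results of these data known, so the count is a description and no sign of enrichment. Ache, acetylcholinesterase, whose transcript HuD is reported to stabilise, was at -1.39 ± 0.15 (adjusted p = 8.38e-05, limma). It read 56 and 38 in short-day BST and 68, 68 and 58 in long-day BST, against 169, 181 and 152 in short-day MPOA and 86, 173 and 121 in long-day MPOA. Gap43, a growth cone protein and a classical HuD target, was at -0.48 ± 0.10 (adjusted p = 0.0200, limma), with 797 and 860 in short-day BST and 1024, 1009 and 1141 in long-day BST, against 1497, 1376 and 1154 in short-day MPOA and 1172, 1393 and 1279 in long-day MPOA. Neither was low on the long-day BST array 1 in the way Elavl4 was, with 68 for Ache and 1024 for Gap43 beside 68 and 1009 on array 2. In MPOA the lowest array for Ache was the long-day array 1 (86), also the lowest for Elavl4 1452894_at (879). For Gap43 it was a short-day MPOA array (1154). The part of Elavl4 in these values was not tested. The list as a whole had 7 above and 11 below 0 with a median of -0.03. The value of Cdkn1b, a cell cycle inhibitor, was 0.40 ± 0.12 (adjusted p = 0.137). None of the 18 passed between day lengths, and the smallest p in BST was that of Cdkn1b at -0.63 ± 0.18 (adjusted p = 0.153), followed by the growth factor Vegfa at 0.47 ± 0.19 (adjusted p = 0.297) and Gap43 at -0.35 ± 0.15 (adjusted p = 0.325). In MPOA Ache was at 0.46 ± 0.19, the kinase subunit Camk2a at -0.29 ± 0.18 and the tau gene Mapt at 0.19 ± 0.16, all with an adjusted p of 1.

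For Nova proteins the reported targets are splice choices, and the probe set values here are transcript levels, which do not give exon inclusion. Of 15 such genes on the array, 7 were above and 8 below 0 between the nuclei, with a median of -0.03. Camk2g, a calcium/calmodulin-dependent kinase subunit, was the one to pass, at -0.75 ± 0.11 (adjusted p = 9.84e-04, limma). It read 190 and 151 in short-day BST and 168, 178 and 186 in long-day BST, against 274, 352 and 300 in short-day MPOA and 244, 328 and 261 in long-day MPOA, so that the nuclei did not overlap. None passed between day lengths, where the smallest p in BST were those of the microtubule protein Map4 (0.32 ± 0.15, adjusted p = 0.384), the receptor phosphatase Ptprf (-0.24 ± 0.14, adjusted p = 0.507) and the kinase Mapk9 (-0.21 ± 0.14, adjusted p = 0.568).

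The members were also set beside all other genes by the likeness of their pattern over the 11 arrays, searched among 7463 genes with a probe set above the median. Closest to the brightest Elavl4 probe set were Ctbp2, a transcriptional corepressor (Pearson r = 0.967 over 11 arrays), Akr1a1, an aldo-keto reductase (0.952), Rnf11, a RING finger protein (0.951), Tsc22d3, a glucocorticoid-induced factor (0.949), and Mtss1, an actin-bundling protein (0.947). Ctbp2 read 142 and 141 in short-day BST and 134, 218 and 191 in long-day BST, against 236, 256 and 214 in short-day MPOA and 215, 237 and 238 in long-day MPOA, with the long-day BST array 1 the lowest, whereas the lowest for Elavl4 1452894_at was the short-day BST array 5. Closest to the brighter Nova1 probe set were Tsn, which encodes the nucleic acid-binding translin (0.971), the peroxiredoxin Prdx4 (0.963), the kinase Map2k4 (0.957), the mitochondrial dismutase Sod2 (0.942) and the sorting nexin Snx12 (0.941). The brightest Elavl2 probe set had a correlation of 0.968 with the brightest Elavl4 probe set over the same arrays and Nova1 1426938_at one of 0.902, against -0.43 for Elavl1 1448151_at and -0.04 for Elavl3 1455484_at. The 11 arrays share the split between the nuclei, and these correlations are descriptions.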

How the data were processed

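The authors deposited an intensity per probe set, linear and in whole numbers. RMA version 3.4 is named per the submitters' processing notes, and no source used here gives the other steps. Of 22690 probe sets, 64 controls were set aside. Gene names came from the platform annotation, in which 20380 of the 22626 tested probe sets carry 1 symbol, 691 several and 1555 none. Of all values, 51.1% were 19 or less.

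The log2 of the intensities, with no pseudocount, was fitted with 4 group means on all 11 arrays (lmFit and eBayes of limma 3.58.1, R 4.3.3; 7 residual and 12.9 prior degrees of freedom). Tests were two-sided, with Benjamini-Hochberg adjustment over all probe sets and a threshold of 0.05. Errors of differences are model standard errors. Lists used 1 probe set per gene, the brightest. The genes, lists and rules for names were chosen with earlier results of these data known. From each list, genes that passed were named. Where none passed for day length, those with the smallest p were named for some of the lists. Fxr2, Ptbp2, Celf4, Celf2, Snap25, Rbfox3, Drd2, Rsph1, Otx2, Folr1, Map2, Nefl, Syn1 and Eno2 were named after their values were seen. Pattern likeness was the Pearson correlation of log2 values. The procedure was tested on simulated arrays with independent noise. These cannot show how it deals with an outlying array or with related probe sets.

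Sample numbers are shared by both nuclei, but the labels do not say what they mark. They were not taken to pair the arrays. Alternatives were other normalizations, transforms, filters, priors, weights and thresholds, fits on 1 nucleus, each array left out, and a replicate block.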

Additional observations from a re-analysis of the deposited data

How the results depend on the processing

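None of the 1201 day-length values of the member probe sets, over 23 alternative settings, passed the threshold, and the smallest adjusted p was 0.0864. All 192 values of Elavl2, Elavl4 and Nova1 between the nuclei stayed below 0, from -1.07 to -0.10. The count of all probe sets past the threshold between short and long days in BST was 10, and became 6 with log2(intensity + 16), 30 at a threshold of 0.10 and 0 on the BST arrays alone. Over arrays left out it ran from 0 to 38, with 1 and 0 without the short-day BST arrays 4 and 5, 16 and 2 without the long-day BST arrays 1 and 2, 2 and 38 without the short-day MPOA arrays 4 and 6, and 5, 6 and 2 without the long-day MPOA arrays 1, 2 and 3. With quantile normalization 5 were higher and 2 lower in BST, against 4 and 6. In MPOA the count was 0, and 1 with array weights, and ran from 0 to 1 over arrays left out, with 1 when the long-day MPOA array 3 was absent. Averaged over the nuclei it was 3, 1 with dim probe sets left out, and from 1 to 5 over arrays left out. For the difference of effects it was 0, and from 0 to 5 over arrays left out, with 5 without the long-day BST array 1. Between the nuclei it was 233, 402 at a threshold of 0.10, and from 70 to 224 over arrays left out. With log2(intensity + 16) 104 were higher and 171 lower there, against 105 and 128. The sign turned in 51 of the day-length values, whose smallest adjusted p was 0.839. With array weights Elavl3 1435871_at stood at 0.026 in MPOA, 0.0086 in BST, 0.017 averaged and -0.018 for the difference of effects, Elavl2 1433052_at at 0.025 for the difference of effects, and Elavl3 1455484_at at -0.0057 between the nuclei. With quantile normalization Elavl3 1435871_at stood at 0.040 in BST and 0.0094 averaged, and Elavl3 1452524_a_at at 0.047 for the difference of effects. Deviations from the group means correlated between same-numbered arrays at 0.01, -0.01, 0.10, 0.12 and -0.02. Such deviations sum to 0 within each small group, which ties the correlations to each other. They cannot show whether a number marks 1 animal. The numbers were not taken to pair the arrays because the labels do not say what they mark. A random replicate block (consensus correlation 0.00786) gave 244 calls between the nuclei and a fixed one 225. With the fixed replicate block the difference of effects was -0.045 for Elavl3 1435871_at, 0.096 for Elavl2 1433052_at, 0.00049 for Elavl3 1452524_a_at and -0.72 for Elavl4 1452894_at, and Elavl3 1455484_at stood at -0.020 between the nuclei. Over arrays left out, the MPOA values ran from -0.048 to 0.15 for Elavl1 1448151_at, -0.14 to 0.079 for Elavl1 1431037_a_at, -0.16 to 0.22 for Elavl2 1454454_at, -0.0049 to 0.23 for Elavl3 1455484_at, -0.049 to 0.15 for Elavl3 1452524_a_at and -0.095 to 0.10 for Elavl3 1435871_at. The BST values ran from -0.65 to 0.13 for Elavl2 1421881_a_at, -0.10 to 0.48 for Elavl2 1433052_at, -0.10 to 0.11 for Elavl3 1452524_a_at and -0.077 to 0.084 for Elavl3 1435871_at. Averaged over the nuclei they ran from -0.11 to 0.098 for Elavl2 1421883_at, -0.22 to 0.17 for Elavl2 1421881_a_at, -0.024 to 0.089 for Elavl3 1452524_a_at, -0.053 to 0.050 for Elavl3 1435871_at and -0.25 to 0.080 for Nova1 1452245_at. For the difference of effects they ran from -0.35 to 0.23 for Elavl2 1433052_at, -0.17 to 0.050 for Elavl3 1452524_a_at and -0.10 to 0.11 for Elavl3 1435871_at, and between the nuclei from -0.029 to 0.11 for Elavl3 1455484_at and -0.0081 to 0.10 for Elavl3 1452524_a_at. The causes were not tested. Dim probe sets, where whole-number intensities are coarse, and the 2 short-day BST arrays limit the precision.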
